A study of Mus musculus with 20 samples.

Results

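The testis of mice 8 days after birth was compared with that of mice 6 days after birth. The comparison used the 2 arrays titled day 8 and the 2 titled day 6, out of 20 arrays that cover 10 days from day 0 to day 35, with 2 arrays a day. Each array held total RNA of the testis, extracted with Trizol, labelled with biotin and measured with 3' expression probe sets. The groups differ in age only, as far as the labels say, and the labels used here name no strain, genotype or treatment for either. Nothing in them says whether the replicates of a day came from separate mice or whether testes were pooled, so a p-value here reflects the spread of these samples alone, which may be technical.

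Spermatogonia, the dividing germ cells at the wall of the seminiferous tubule, pass in the first days after birth from an undifferentiated state that holds the stem cells into differentiating type A and then type B spermatogonia. The change depends on retinoic acid and on the receptor Kit. Type B spermatogonia then give rise to preleptotene spermatocytes, the cells that enter meiosis. Around the germ cells, Sertoli cells still divide in these days and turn gradually from their fetal to their adult programme, while fetal Leydig cells of the interstitium give way to adult ones.

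The cell types were checked by markers, whose values are given as intensity, the brightness of a probe set in arbitrary units. The germ cell RNA helicase Ddx4 measured 829.6 and 816 on day 6 and 859 and 833 on day 8. Sox9, a transcription factor of Sertoli cells, measured 470.3 and 523 on day 6 and 476 and 465 on day 8, and smooth muscle actin Acta2 of the peritubular myoid cells measured 4653 and 4418 on day 6 and 4994 and 5118 on day 8. The undifferentiated marker Zbtb16, the differentiating markers Kit and Stra8, and the Leydig cell enzyme Cyp11a1 were all well above the low intensities of genes of other tissues. The mean of the epididymal genes Lcn5 and Gpx5 lay between 3.02 and 13.0 on either day, and that of the skeletal muscle genes Acta1 and Ckm between 3.46 and 15.6. Mylpf, of fast skeletal muscle, was higher, at 35.5 and 32.3 on day 6 and 46.5 and 19.7 on day 8. The fat cell gene Adipoq had means of 7.63 and 5.43, and the globin gene Hba-a1 means of 8.08 and 5.92. Defining markers of germ cells, Sertoli cells, Leydig cells and myoid cells were thus all present on both days.

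The ratio of 3' to 5' signal for actin was 1.59 and 1.64 on day 6 and 1.58 and 1.97 on day 8. Replicate 2 of day 8 thus stood above the other 3 arrays, and above every other array of days 0 to 14, in this ratio, and without it 25 of the 41 calls given below remained among 37. The ratio for Gapdh ran from 0.748 to 0.789 over the 4 arrays. Log2 intensities over 16429 genes correlated with r = 0.986 between the day 6 arrays and r = 0.984 between the day 8 arrays. Between arrays of different days r was 0.981 to 0.983, so the days were almost as alike as their replicates. These correlations are across genes, which are not independent replicates. With 2 arrays a day, the number of arrays limits the precision of every value.

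Few genes differed between the days. Differences are given as log2(intensity + 7.83) on day 8 minus day 6, ± the standard error (SE), where 1 stands for 2-fold and the added constant makes differences of dim genes smaller. A gene was called, and is said to have risen or fallen, at an adjusted p under 0.05 (limma, Benjamini-Hochberg over all genes tested) and a difference of at least 2-fold. Of 16429 genes, 32 rose (0.195%) and 9 fell (0.0548%), 41 in all (0.25%). By the adjusted p alone, with no demand on size, 192 were higher (1.17%) and 62 lower (0.377%), and 1802 had an unadjusted p under 0.05 (11%). The 2 day 8 arrays lay above both day 6 arrays for 4471 genes (27.2%) and below both for 3417 (20.8%). The testis was measured whole, so fewer cells of a type and less RNA per cell cannot be told apart in any difference below.

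**Figure D1:**
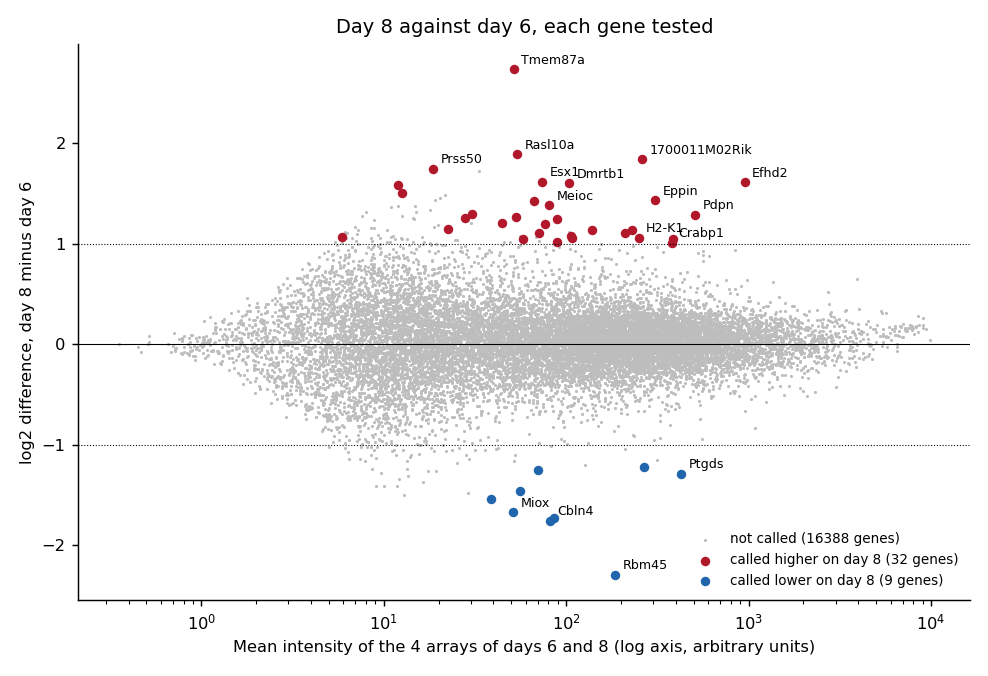
Each point is 1 of the 16429 genes tested, with its mean intensity over the 4 arrays of days 6 and 8 on a log axis and its log2 difference (day 8 minus day 6) on the vertical axis. The 32 called higher are red and the 9 called lower blue, dotted lines mark 2-fold, and the grey cloud narrows around 0 as intensity grows.

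The same fit says how many genes were held close to no change. For 11635 genes (70.8%) the 95% confidence interval of the difference, taken gene by gene without adjustment, lay within 2-fold either way, and for 6626 (40.3%) it lay within 1.5-fold. Another 4753 (28.9%) were neither called nor bounded. Some of them, such as Tex15 below, passed the adjusted p alone, and of the rest nothing can be said but their interval. The share bounded within 2-fold depended on the added constant. It was 58.2% with the constant at the pooled 5th percentile of intensity and 95.4% with it at the 40th. The share bounded also followed intensity. Among 10572 genes with both day means above 34.6, the median of all values, 9817 (92.9%) were bounded within 2-fold and 6536 (61.8%) within 1.5-fold, while 24 were called (0.227%). Of the other 5857 genes, 1818 (31%) were bounded within 2-fold and 17 were called (0.29%). With the genes ranked by level and cut into 10 equal groups, 94.6% of the brightest group were within 1.5-fold, against 1.16% of the dimmest. Between the days the median gene differed by 0.02.

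**Figure D2:**
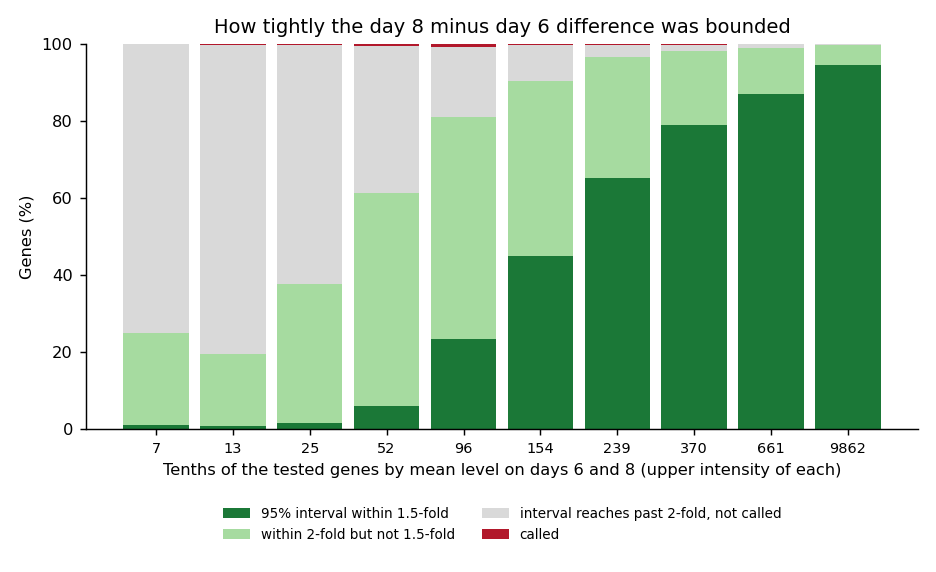
Genes were cut into 10 equal groups by mean level on days 6 and 8, with the upper intensity of each group on the horizontal axis, and the bars give the percentage of each group by how closely its 95% interval was bounded. The dark green part, within 1.5-fold, grows from 1.16% in the dimmest group to 94.6% in the brightest, and called genes are at most 0.73% of any group.

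The rises are described first, by cell type, and 3 promoters are shown here for genes whose values carry the account: Meioc, a cofactor of the RNA helicase Ythdc2 that keeps germ cells in meiotic prophase, Esx1, an X-linked homeobox gene of germ cells, and Pdpn, the membrane glycoprotein podoplanin, whose level turned sharply. Each is the 120 bases before the gene's start, 5' to 3' on the gene's own strand, from RefSeq on GRCm38.p6, at chr11:102665465-102665584 (plus strand) for Meioc, chrX:137120327-137120446 (minus strand) for Esx1 and chr4:143299565-143299684 (minus strand) for Pdpn. Capitals mark a match on either strand to CCAAT (bound by NF-Y) in Meioc, CACGTG (an E-box) in Esx1 and AGGTCA (a nuclear receptor half-site) in Pdpn.
Meioc: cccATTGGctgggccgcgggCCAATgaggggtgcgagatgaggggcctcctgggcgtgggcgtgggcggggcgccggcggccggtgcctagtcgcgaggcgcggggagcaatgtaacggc
Esx1: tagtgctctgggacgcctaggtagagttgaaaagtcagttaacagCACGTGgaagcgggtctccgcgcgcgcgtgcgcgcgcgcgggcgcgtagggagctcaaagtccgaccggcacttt
Pdpn: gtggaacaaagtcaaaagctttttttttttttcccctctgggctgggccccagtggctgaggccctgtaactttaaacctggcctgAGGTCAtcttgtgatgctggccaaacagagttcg

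A promoter was found for 32 of the 41 called genes, 27 that rose and 5 that fell. Over 250 bases before the start and both strands, AGGTCA stood in 6 of the 27 risen genes (22.2%), against 14.2% of the tested genes' promoters and 15.8% of all 27025 in the table. CACGTG stood in 3 (11.1%), against 9.12% and 6.86%, and CCAAT in 8 (29.6%), against 39.5% and 37.5%. TTTGAA, the core of the cell cycle homology region, stood in 6 (22.2%), against 13.6% and 18.3%. The 5 fallen genes held AGGTCA once (Miox) and CCAAT once (Cbln4), and neither of the other motifs. The motifs do not overlap in their letters, and these counts are a description of the letters only.

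Dmrtb1 (also called Dmrt6), a transcription factor that acts as spermatogonia leave mitosis for meiosis, measured 53.8 and 41.5 on day 6 and 142 and 179 on day 8. All day 8 arrays lay well above day 6, a difference of 1.60 ± 0.21 (adjusted p = 2.40e-04). Esx1 measured 35.3 and 29.6 on day 6 and 120.0 and 111 on day 8 and rose by 1.62 ± 0.33 (adjusted p = 0.011). Its call ended whichever of the 4 arrays was left out (adjusted p 0.066 to 0.127), always with a difference of at least 1.51. Rhox13, an X-linked homeobox gene of germ cells entering meiosis, measured 128 and 134 on day 6 and 273 and 309.8 on day 8, up by 1.10 ± 0.18 (adjusted p = 0.00174). Crabp1, which binds retinoic acid in the cytoplasm, measured 257 and 240.4 on day 6 and 500.5 and 516 on day 8, and its difference of 1.01 ± 0.22 (adjusted p = 0.0171) lay just over 2-fold. The call of Crabp1 too ended without any 1 of the 4 arrays (adjusted p 0.117 to 0.16). These 4 were the called members among 13 genes of differentiating spermatogonia, with none called lower, beside 0.195% of all genes called higher. By adjusted p alone 5 of the 13 were higher and 1 lower, beside 1.17% and 0.377% of all genes. Members of this and the other lists were chosen with earlier results of these data known. The median of the list was 0.38 against 0.02 over all genes.

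The best known switch genes of that list differed less. Stra8, induced by retinoic acid and needed for meiotic entry, measured 456 and 456 on day 6 and 723 and 688 on day 8, a difference of 0.62 ± 0.11 (adjusted p = 0.00457) that passed the test but was bounded within 2-fold. Kit measured 173 and 149.5 on day 6 and 248 and 259 on day 8. Its arrays did not overlap, but the fit over all days gave 0.63 ± 0.36 with an interval of -0.12 to 1.38 (adjusted p = 0.585). Sohlh1 and Sohlh2, helix-loop-helix factors of early differentiation, were higher on both day 8 arrays by 0.38 and 0.31, with adjusted p = 0.804 and 0.504. Dmrt1, which holds spermatogonia in mitosis, was level at 2132 and 1919 on day 6 and 1951 and 2088 on day 8, with an interval of -0.24 to 0.23. Ccnd2, the cyclin D2 of differentiating spermatogonia, went the other way at 2464 and 2468 on day 6 and 1763 and 1683 on day 8, a difference of -0.52 ± 0.10 (adjusted p = 0.00673). The other probe sets of Ccnd2 were all lower too, at -0.55 to -0.90, each further from 0 than the one used. By the probe sets used, Dmrt1 and Ccnd2, the brightest members of the list, were bounded within 2-fold.

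None of the 24 tested genes of undifferentiated spermatogonia was called, 12 were bounded within 2-fold, and their median was -0.07. Zbtb16 (PLZF), the zinc finger factor of stem and progenitor cells, measured 421 and 382 on day 6 and 414 and 398 on day 8, with an interval of -0.37 to 0.40. Sall4, its partner, measured 356 and 371 on day 6 and 392 and 372 on day 8, and was bounded within 1.5-fold at 0.07. Id4, a marker of the stem cell pool, measured 204 and 189 on day 6 and 124 and 125 on day 8, a difference of -0.63 ± 0.11 (adjusted p = 0.00505). The other probe sets of Id4 gave -0.29 and -0.36 (adjusted p = 0.804 and 0.606). Over the 10 days its mean was highest on day 20, at 1098. Gfra1, the GDNF receptor of the stem cell pool, measured 77.7 and 92.2 on day 6 and 53.6 and 50.6 on day 8, also lower on both day 8 arrays, but its adjusted p was 0.415 at -0.63 ± 0.28. Lin28a, an RNA-binding protein of progenitors, measured 513 and 487 on day 6 and 377 and 275 on day 8 (-0.62 ± 0.21, adjusted p = 0.194). Another probe set of Lin28a went the other way, at 0.46 from means of 164 on day 6 and 229 on day 8. Neurog3, a factor of progenitors about to differentiate, was not bounded, at 0.32 ± 0.44 with an interval of -0.61 to 1.24. Taf4b, a germ cell subunit of the general transcription machinery and the brightest of the list, measured 505 and 504 on day 6 and 771 and 666 on day 8 (0.50 ± 0.10, adjusted p = 0.0119). Passing the test by adjusted p alone were thus 1 gene upward and 1 downward.

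Genes of meiotic entry and prophase gave 3 calls among 27 tested, all upward, beside 0.195% of all genes called higher. By adjusted p alone 12 of 27 were higher and none lower, beside 1.17% and 0.377% of all genes. The median of the list was 0.55, the highest of the 31 lists, and 25 of its genes lay above 0, beside 8811 of all 16429. The lists were chosen with earlier results of these data known. Meioc, whose promoter is printed above, measured 42.2 and 40.2 on day 6 and 116 and 125 on day 8, and both day 8 arrays were far above both day 6 arrays, a difference of 1.38 ± 0.13 (adjusted p = 5.77e-06). Terb1, which ties meiotic telomeres to the nuclear envelope, measured 24.2 and 22.4 on day 6 and 51.8 and 78.8 on day 8 (1.21 ± 0.16, adjusted p = 3.22e-04). Without replicate 2 of day 8 its difference was 0.94, adjusted p = 0.0167, under 2-fold. Dmc1, the strand exchange protein of meiotic recombination, measured 38.3 and 48.9 on day 6 and 111 and 108 on day 8 (1.20 ± 0.19, adjusted p = 0.00138). Another probe set of Dmc1 gave 0.52, and the mean of its probe sets, at 0.86, was under 2-fold.

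The list holds 7 genes of the synaptonemal complex, the protein zip that joins paired chromosomes, a grouping made after their values were seen. None of the 7 was called, 6 were higher by adjusted p alone, and 5 were bounded within 2-fold. The 2 that were not bounded were Sycp1, of the transverse filaments, at 0.75 (adjusted p = 0.00361) and Syce3, of the central element, at 0.83 (adjusted p = 6.03e-04). Sycp3, of its lateral element, measured 486 and 458 on day 6 and 678 and 685 on day 8 (0.52 ± 0.10, adjusted p = 0.00518). The brightest gene of the list, the central element gene Syce2, measured 1219 and 1164 on day 6 and 1421 and 1431 on day 8, with an interval of 0.10 to 0.41 and an adjusted p of 0.0977. Tex15, needed for repair of meiotic breaks, lay just under the threshold, at 575 and 574 on day 6 and 1128 and 1090.5 on day 8 and a difference of 0.94 ± 0.08 (adjusted p = 2.48e-06). Rec8, the meiotic cohesin, measured 32.7 and 31.6 on day 6 and 49.6 and 61.9 on day 8, higher on both arrays but with an interval of 0.02 to 1.31 (adjusted p = 0.431). Tex15 was picked out after its value was seen.

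General germ cell genes differed upward, by less than 2-fold. Ddx4 had an interval of -0.16 to 0.24. All 7 tested pan-germ cell genes were bounded within 2-fold, and all 7 lay above 0, beside 8811 of all 16429 genes. Their median was 0.40, near the 0.38 of the list of differentiating spermatogonia. Their summed intensity was 6193 and 6035 on day 6 and 7885 and 7480 on day 8. Dazl, an RNA-binding protein of all germ cells, measured 2479.8 and 2272 on day 6 and 3281 and 2988 on day 8 (0.40 ± 0.12, adjusted p = 0.129). Tex101, a surface protein of germ cells, and Tex14, of their intercellular bridges, passed the adjusted p alone at 0.71 and 0.57 (adjusted p = 9.98e-04 and 0.00369). Of 16 genes of the piRNA pathway, which silences transposons in the germ line, none was called and 14 were bounded within 2-fold. Their median was 0.26, and 15 lay above 0. Tdrd9 and Rnf17, both Tudor domain proteins, were higher by 0.68 and 0.65 (adjusted p = 0.0178 and 0.00665), while Mael, the brightest, was within 1.5-fold at 0.19. The de novo and maintenance DNA methylation genes gave no call among 8 and a median of -0.12, with the maintenance enzyme Dnmt1 at -0.05 and its partner Uhrf1 at -0.22, both bounded within 1.5-fold, and the cofactor Dnmt3l unbounded at 0.32.

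Genes of later germ cells stayed dim. Of 15 genes of pachytene spermatocytes, 1 was called higher, beside 0.195% of all genes. This was Meig1, which later serves spermatid shaping. It measured 30.3 and 39.9 on day 6 and 74.2 and 87.0 on day 8 (1.05 ± 0.14, adjusted p = 2.53e-04) against a day 35 mean of 6670.0, and its difference was under 2-fold without replicate 1 of day 6 (0.89, adjusted p = 0.0127) or replicate 2 of day 8 (0.94, adjusted p = 0.0138). The median of that list was -0.11, and its brightest gene, Tbpl1, a relative of the TATA-binding protein, had a difference of 0.39 (adjusted p = 0.0961). None of 17 spermatid genes was called, by either rule, and their median was 0.05. The transition protein Tnp1 measured 6.40 and 8.60 on day 6 and 21.4 and 15.7 on day 8 (adjusted p = 0.233) and the sperm tail anchor Akap3 3.59 and 4.76 on day 6 and 14.6 and 9.05 on day 8 (adjusted p = 0.172), both close to the added constant. Spaca1, an acrosome protein and the brightest of them, measured 34.7 and 43.0 on day 6 and 40.5 and 49.7 on day 8, with arrays that overlapped.

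Other rises included genes that belong to none of the lists. Prss50, a testis serine protease, measured 4.34 and 4.28 on day 6 and 32.0 and 34.0 on day 8 (1.75 ± 0.26, adjusted p = 8.70e-04). B4galnt1, which makes gangliosides, measured 2.20 and 1.19 on day 6 and 12.9 and 31.7 on day 8 (1.59 ± 0.36, adjusted p = 0.0253), and its call ended without replicate 1 or 2 of day 6 or replicate 2 of day 8 (adjusted p 0.135 to 0.395). Tmem87a, a Golgi membrane protein, had the highest difference of all 41, at 9.99 and 5.28 on day 6 and 111 and 79.4 on day 8 (2.74 ± 0.45, adjusted p = 0.00211). The day 6 means of these 3 lay under the constant of 7.83, so that the sizes depend on it. With a floor at 34.6 under all values, none of the 3 was called, and with a smaller constant (the 5th percentile) B4galnt1 was at 2.76. Rasl10a, a small GTPase of the Ras family, measured 31.3 and 9.01 on day 6 and 80.0 and 95.7 on day 8. Its call (1.89 ± 0.47, adjusted p = 0.0468) held without replicate 1 of day 6 and ended without any other of the 4 arrays (adjusted p 0.173 to 0.497).

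Ly6k, a membrane-anchored germ cell protein, measured 38.6 and 26.9 on day 6 and 108 and 93.6 on day 8 (1.43 ± 0.15, adjusted p = 1.74e-05). A dimmer probe set of Ly6k went the other way at -0.39, and their mean gave 0.52, which was not called. Ccdc13, a coiled-coil protein, measured 27.4 and 5.05 on day 6 and 41.2 and 47.9 on day 8, with 1 day 6 array close to day 8 and the other far below. Its difference of 1.30 ± 0.32 (adjusted p = 0.0474) became 0.57 without replicate 2 of day 6 and 2.02 without replicate 1, and the call also ended without either array of day 8 (adjusted p 0.163 to 0.616). Klf9, a zinc finger transcription factor outside the naming rule and chosen after its values were seen, measured 259 and 238 on day 6 and 506 and 536 on day 8 (1.05 ± 0.11, adjusted p = 1.74e-05). Of its other probe sets 2 were called, at 1.03 and 1.19, whereas without replicate 2 of day 6 the difference was 0.99, adjusted p = 9.44e-04, just under 2-fold. The mean of all its probe sets was not called either.

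**Figure D3:**
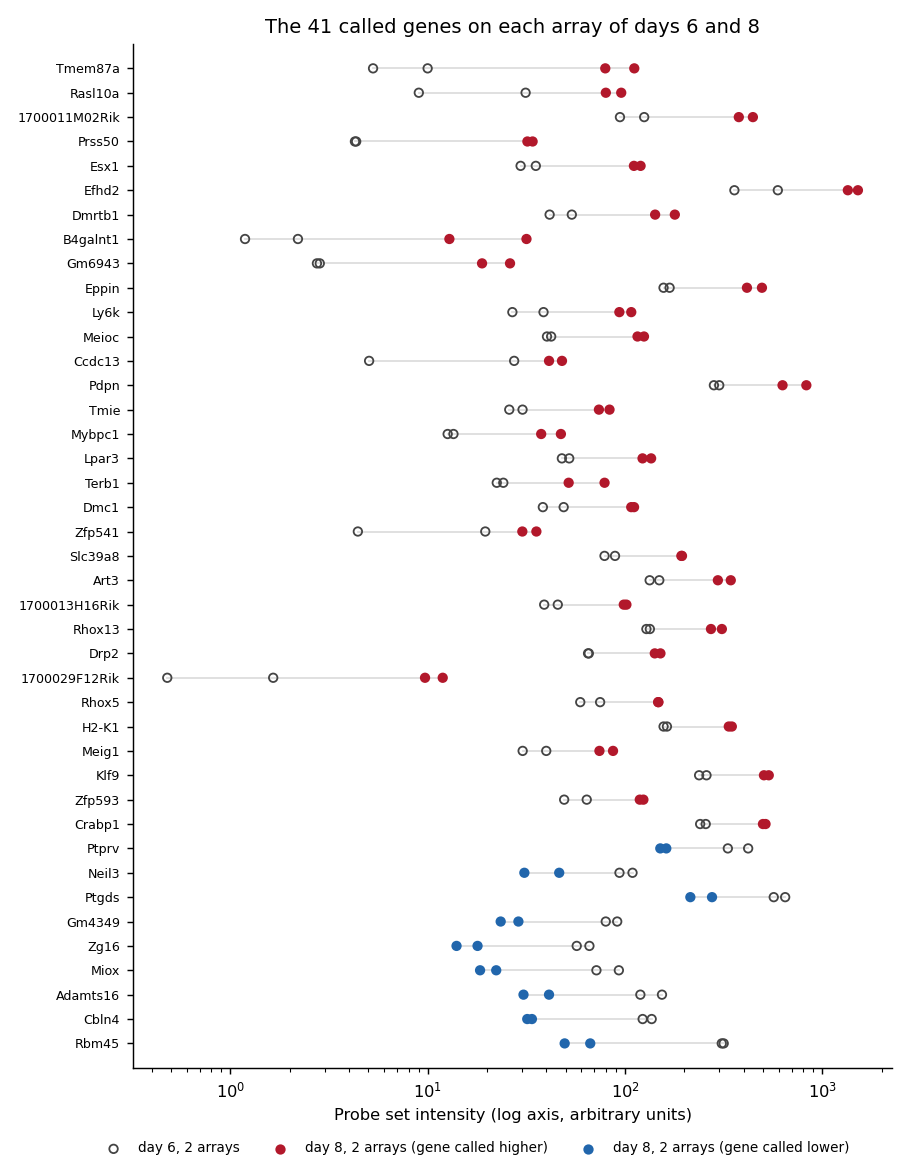
The intensity of each of the 41 called genes is given on a log axis for the 2 arrays of day 6 (open circles) and the 2 arrays of day 8 (red where the gene was called higher, blue where lower). No called gene has arrays of the 2 days that overlap. Over all genes tested, both day 8 arrays lay above both day 6 arrays in 27.2% and below both in 20.8%. The replicates of Ccdc13, Zfp541 and Rasl10a lie farthest apart on day 6.

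The called genes hold 6 on the X chromosome, all of which rose, among 559 X-linked genes tested (1.07%), beside 26 rises among 15870 others (0.164%). By adjusted p alone 22 X-linked genes were higher (3.94%) and none lower, against 170 of the others (1.07%), although the median X-linked gene was at -0.01. Beside Esx1 and Rhox13 they were the uncharacterised 1700011M02Rik and 1700013H16Rik, the dystrophin relative Drp2, and Rhox5 of Sertoli cells, described with those below. The first of them, 1700011M02Rik, measured 94.3 and 125 on day 6 and 378 and 445 on day 8, the steepest rise of the 6 (1.84 ± 0.23, adjusted p = 1.66e-04). Drp2 measured 65.6 and 65.0 on day 6 and 142 and 151 on day 8 (1.08 ± 0.18, adjusted p = 0.00224), and 1700013H16Rik 45.6 and 38.9 on day 6 and 102 and 98.6 on day 8 (1.11 ± 0.20, adjusted p = 0.00457). The call of 1700013H16Rik ended without replicate 2 of day 6 (1.01, adjusted p = 0.0827) or replicate 1 of day 8 (1.09, adjusted p = 0.0593). With its probe sets averaged Drp2 was at 0.83 (adjusted p = 0.138) and not called. Drp2 and the 2 Rik genes were outside the naming rule and were picked after their values were seen. On all 4 arrays the summed intensity of the X-linked genes stayed between 182002 and 185517.

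Genes for division lay mostly below 0, but within narrow bounds. All 25 genes of mitosis were bounded within 2-fold and 18 within 1.5-fold, with a median of -0.21. By adjusted p alone 5 were lower, beside 0.377% of all genes. Ect2, which directs cytokinesis, measured 422 and 395 on day 6 and 254 and 243 on day 8 (-0.70 ± 0.11, adjusted p = 0.00187), and Cdk1, the kinase that drives mitosis, measured 1219.5 and 1221 on day 6 and 851 and 819.9 on day 8 (-0.54 ± 0.07, adjusted p = 3.49e-04). The proliferation marker Mki67 measured 994 and 1115 on day 6 and 851 and 862 on day 8 (-0.30 ± 0.12, adjusted p = 0.304), and Cdc20, the brightest, measured 1682 and 1671 on day 6 and 1244 and 1647 on day 8 (-0.23, adjusted p = 0.384). Of 26 DNA replication genes none was called and none passed the adjusted p alone, 23 were bounded within 2-fold, and the median was -0.20. Pcna, the sliding clamp of the replication fork, was level at 3184 and 3296 on day 6 and 3376 and 3295 on day 8, with an interval of -0.12 to 0.20. The thymidine enzymes Tyms and Tk1 differed most, at -0.58 and -0.55, with adjusted p = 0.606 and 0.377. With quantile normalization the medians of the mitosis and replication lists were -0.23 and -0.22.

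All 20 of the G1 cyclins and inhibitors of cyclin-dependent kinases were bounded within 2-fold, with no call and a median of -0.10. Rbl1, a pocket protein related to the retinoblastoma protein, was lower at -0.65 (adjusted p = 0.00415), as was the bright Ccnd2 described above. Ccnd1, another D-type cyclin, was higher at 0.62 (adjusted p = 0.0468), so that cyclins D1 and D2 differed in opposite directions. Of 13 apoptosis genes none was called and 12 were bounded, with a median of 0.05. The BH3-only genes Bad and Bbc3 were at 0.41 and 0.39, and Mcl1, a survival gene and the brightest, at -0.18.

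In Sertoli cells, genes of the adult programme gave 2 calls and those of the immature programme none. Eppin, a secreted protease inhibitor first known from the epididymis, measured 157 and 168 on day 6 and 415 and 495 on day 8. Both day 8 arrays lay far above day 6, at 1.44 ± 0.13 (adjusted p = 3.23e-06), and the call held under each alternative tried. Rhox5, an X-linked homeobox gene that androgen induces in Sertoli cells, measured 74.8 and 59.3 on day 6 and 148 and 147 on day 8 (1.06 ± 0.13, adjusted p = 9.51e-05), although without replicate 2 of day 6 it was under 2-fold (0.91, adjusted p = 0.00371). These 2 calls were among 15 genes tested, beside 0.195% of all genes called higher. Over the 15 the median was 0.35, and 12 were bounded within 2-fold. By adjusted p alone 3 of the 15 were higher and 1 lower, beside 1.17% and 0.377% of all genes. Cldn11, which builds the blood-testis barrier, measured 538 and 511 on day 6 and 708 and 760.3 on day 8 (0.48 ± 0.13, adjusted p = 0.0679). The brightest, Clu (clusterin), was within 1.5-fold at 0.17.

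Of 11 genes of immature Sertoli cells, 10 were below 0, with a median of -0.43, yet only Inhbb passed the adjusted p. Inhbb, a subunit of inhibin and activin, measured 1662 and 1440.4 on day 6 and 1155 and 1138 on day 8 (-0.43 ± 0.09, adjusted p = 0.0133). Amh, the hormone that removes the female ducts in the fetus, measured 319 and 289 on day 6 and 141 and 179.9 on day 8. Both day 8 arrays were well below day 6, at -0.90 ± 0.28, but the adjusted p was 0.134 and the interval ran from -1.48 to -0.32. Hsd17b1, a steroid dehydrogenase of fetal and young Sertoli cells, measured 429.9 and 445 on day 6 and 195 and 189.7 on day 8, the largest difference of the list at -1.15 ± 0.33 (adjusted p = 0.0995). Its replicates lay close together on both days. The SE rests on the spread of each gene over all 10 days, and with days 6 and 8 fitted alone, or days 0 to 14 alone, Hsd17b1 was called.

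General Sertoli cell genes were stable, with all 11 bounded within 2-fold, no call and a median of -0.12. Sox9 had an interval of -0.40 to 0.25, and Wt1, a zinc finger factor that keeps Sertoli cell identity, measured 920.3 and 822 on day 6 and 744 and 858 on day 8, with an interval of -0.40 to 0.16. Vim, the intermediate filament vimentin, was at 0.03. Inha, the alpha subunit of inhibin, was lower at -0.32 (adjusted p = 0.0462), and the junction gene Cldn5 was at 0.49 (adjusted p = 0.262). Of 13 growth factors of the spermatogonial niche none was called or passed the adjusted p, 8 were bounded within 2-fold, and the median was -0.06. Gdnf, which maintains the stem cells, measured 178 and 158 on day 6 and 102 and 116 on day 8, lower on both day 8 arrays, with an interval of -1.14 to -0.04 (adjusted p = 0.399). Kitl, the ligand of Kit, measured 1997 and 2011 on day 6 and 1681 and 1707 on day 8 and was bounded within 1.5-fold at -0.24 ± 0.13 (adjusted p = 0.541). Igf1, the brightest, was at -0.06, while Fgf9 was dim and unbounded at 0.56.

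Of 18 genes that make, carry, sense or break down retinoic acid, with a median of 0.16, Crabp1 alone was called. By adjusted p alone 3 were higher, beside 1.17% of all genes. Rbp4 and Rxrb, the plasma carrier of retinol and a retinoid X receptor, were the others, at 0.86 and 0.83 (adjusted p = 0.00195 and 0.00653), and were named because they complete that count. Aldh1a1, a retinaldehyde dehydrogenase of Sertoli cells and the brightest, was level at 4722 and 4638 on day 6 and 4558 and 4778 on day 8. Among 10 hormone receptors none was called, 8 were bounded within 2-fold, and the median was -0.12. The glucocorticoid receptor Nr3c1 was higher at 0.58 (adjusted p = 0.0442), the estrogen receptor Esr2 was dim and unbounded at -0.62, and the thyroid hormone receptor Thra was within 1.5-fold at -0.19.

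Genes of the Leydig cell and steroidogenesis lists showed differences of both signs, in RNA of the whole testis. Ptgds, a prostaglandin D synthase placed in the Leydig cell list, measured 649 and 568 on day 6 and 214 and 276 on day 8 and fell by 1.29 ± 0.18 on the log2 scale (adjusted p = 4.48e-04). It was the only call in that list of 7, beside 0.0548% of all genes called lower. The median of the list was 0.03, and Pdgfra, the platelet-derived growth factor receptor of Leydig cell precursors, was level at -0.06. Of 9 steroidogenesis genes none was called, 7 were bounded within 2-fold, and the median was 0.22. Cyp17a1, which makes androgens from progestins, measured 396 and 456 on day 6 and 736 and 847 on day 8 (0.88 ± 0.12, adjusted p = 3.07e-04). Hsd17b3, the last enzyme of testosterone synthesis, measured 699 and 764 on day 6 and 399 and 357 on day 8 and went the other way (-0.94 ± 0.13, adjusted p = 4.42e-04). Both passed the test just under 2-fold, and Hsd17b3 was called with quantile normalization or without replicate 1 of either day. Star, which brings cholesterol into mitochondria, measured 146 and 145 on day 6 and 207 and 193 on day 8 (0.44 ± 0.19, adjusted p = 0.373). Cyp11a1, which begins steroid synthesis, measured 333 and 401 on day 6 and 375 and 464 on day 8 with an interval of -0.14 to 0.51, and Hsd3b1, the brightest, was at 0.21. All 13 cholesterol synthesis genes were bounded within 2-fold with a median of 0.08, among them Sc5d at 0.39, Lss at 0.29 and Hmgcs1, the brightest, at 0.09.

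Genes of other somatic cells differed little. All 13 genes of peritubular myoid cells were bounded within 2-fold, with a median of 0.16. Acta2 had an interval of -0.00 to 0.32, and Myh11 and Des, of the contractile and intermediate filaments, were at 0.32 and -0.30. All 24 extracellular matrix genes were bounded within 2-fold and 19 within 1.5-fold, with a median of -0.06. Col1a1, of type I collagen, measured 2312 and 2235 on day 6 and 2080.4 and 2156 on day 8 with an interval of -0.43 to 0.23, and Sparc, the brightest, was at 0.14. Elastin, Eln, was higher at 0.64 ± 0.12 (adjusted p = 0.00629), whereas the proteoglycan gene Lum was at -0.43 (adjusted p = 0.516). Of 15 endothelial genes 12 were bounded within 2-fold, with no call and a median of 0.09, the junction gene Esam at 0.45 and the factor Sox18, the brightest, at -0.38. Of 19 genes of macrophages and leukocytes none was called, 15 were bounded, 16 lay above 0, and the median was 0.33. Csf1r, the receptor that macrophages depend on and the brightest, measured 203 and 199 on day 6 and 326 and 298 on day 8 (0.62 ± 0.11, adjusted p = 0.00415), while H2-Ab1 was dim and unbounded at 0.76. The summed intensity of the macrophage list was 1401 and 1434 on day 6 and 1929 and 1785 on day 8, and its part in the rises above was not tested.

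Genes of tissues that can be carried along in dissection gave no call. The 4 erythroid genes had a median of -0.14, with Alas2 of haem synthesis at 55.6 and 32.9 on day 6 and 30.3 and 17.5 on day 8 and the globin Hba-a1 unbounded at -0.28. Of the 5 epididymal genes none was bounded, with a median of -0.30, Gpx5 at 0.69 and Rnase10, the brightest, at -0.40, all from intensities under 30. The 8 genes of fat and skeletal muscle had a median of -0.12, with creatine kinase Ckm at 1.05, troponin Tnnt3 at -0.58 and Mylpf, the brightest, at -0.11. Summed intensity over the 5 epididymal genes was 64.8 and 50.2 on day 6 and 46.3 and 58.8 on day 8, so the days overlapped. For the 8 fat and muscle genes it was 113 and 113 on day 6 and 131 and 103 on day 8, and for the 4 erythroid genes 78.8 and 47.4, then 65.9 and 23.3.

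Genes that serve every cell were mostly bounded within 1.5-fold. All 14 housekeeping genes were bounded within 1.5-fold, with a median of 0.06 that became -0.03 with quantile normalization. Actb, cytoplasmic actin, measured 6728 and 6235 on day 6 and 7047 and 6641 on day 8 with an interval of -0.08 to 0.23. Pgk1, of glycolysis, was at -0.23, the ribosomal stalk gene Rplp0 at 0.19, and the elongation factor Eef1a1, the brightest, at 0.19. Of 44 cytosolic ribosomal protein genes 42 were bounded within 2-fold and 37 within 1.5-fold, with a median of 0.13, and Rps3 alone passed the adjusted p, at 0.31 (adjusted p = 0.016). Rps6, read by a dim probe set at 119 and 116 on day 6 and 72.2 and 69.5 on day 8, was at -0.68 (adjusted p = 0.228). Of 38 proteasome subunits 36 were bounded within 2-fold and 35 within 1.5-fold, with a median of 0.08, and the 2 others were the dim immunoproteasome genes Psmb8 and Psmb9. Among the 5 brightest genes tested, Rps29, Rps3a1, Rpl38 and Eef1a1 were bounded within 1.5-fold at 0.05, 0.15, 0.17 and 0.19. Tpt1, the tumour protein of translational control, was at 0.26 (adjusted p = 0.0251) and within the same bound.

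Growth and stress genes gave no call either. Of 15 imprinted growth genes 12 were bounded within 2-fold, with a median of -0.13. Igf2, the fetal growth factor, measured 1924 and 1820.3 on day 6 and 1851 and 1905 on day 8 and was level, with an interval of -0.32 to 0.33. Plagl1, a zinc finger regulator and the brightest, was at -0.23, and Nnat and Mest were at -0.57 and -0.46 (adjusted p = 0.262 and 0.301). Of 14 immediate early and stress genes 11 were bounded, with a median of 0.09. Egr1, which handling of tissue can induce, measured 547 and 549 on day 6 and 528 and 512 on day 8 with an interval of -0.36 to 0.21, Btg2 was at 0.45, and Fosb was dim and unbounded at -0.32.

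**Figure D4:**
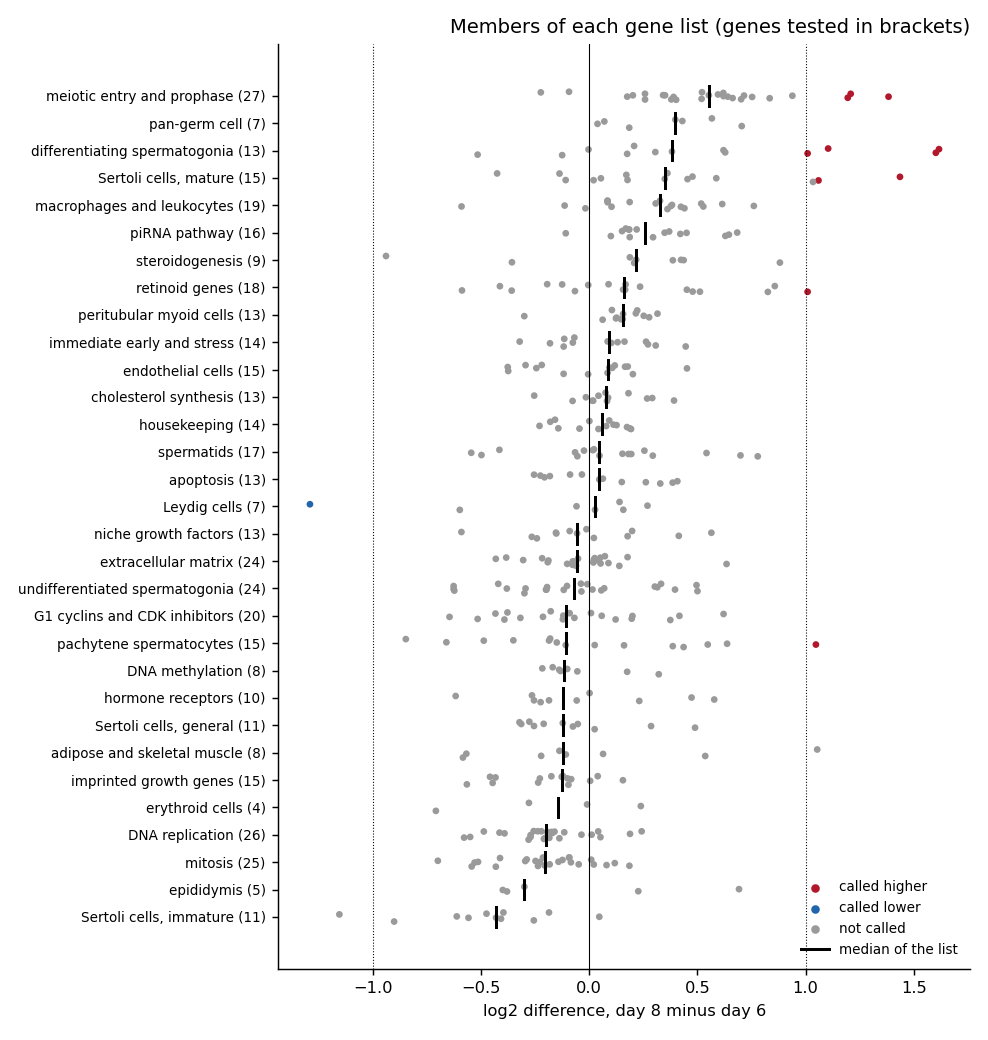
Each point is a tested gene of 1 of the 31 lists, placed by its log2 difference (day 8 minus day 6), with the number tested in brackets and a bar at the median of the list. Red and blue points were called higher and lower, dotted lines mark 2-fold, and most points lie between them, with the list of meiotic entry and prophase at the top (median 0.55) and that of immature Sertoli cells at the bottom (median -0.43).

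The falls were fewer and their median was -1.55. Cbln4, a secreted protein of the cerebellin family, measured 123 and 137 on day 6 and 33.7 and 31.9 on day 8 (-1.76 ± 0.29, adjusted p = 0.00238), and its adjusted p was 0.0527 without replicate 2 of day 6. Adamts16, a matrix metalloprotease, measured 119.6 and 154 on day 6 and 30.6 and 41.2 on day 8 (-1.73 ± 0.34, adjusted p = 0.0092). Its call ended without either array of day 6 or replicate 1 of day 8 (adjusted p 0.0557 to 0.148), or with the constant at the 5th percentile (adjusted p = 0.082). With its probe sets averaged it was at -0.999 (adjusted p = 0.0913) and not called, the other probe set being dim and at -0.27. Miox, which breaks down inositol, measured 71.6 and 93.1 on day 6 and 22.2 and 18.4 on day 8 (-1.67 ± 0.39, adjusted p = 0.0297), and Zg16, a secretory lectin, 56.9 and 66.0 on day 6 and 17.9 and 14.0 on day 8 (-1.55 ± 0.34, adjusted p = 0.0228). Neil3, a DNA glycosylase, measured 109 and 93.8 on day 6 and 46.4 and 30.9 on day 8 (-1.25 ± 0.29, adjusted p = 0.0338). The calls of Miox, Zg16 and Neil3 each ended without any 1 of the 4 arrays (adjusted p 0.0694 to 0.348), with differences of -1.01 to -1.84, and those of Miox and Zg16 also with the constant at the 5th percentile (adjusted p = 0.124 and 0.0645). Both day 8 arrays lay below both day 6 arrays in each of these genes, which the rule for naming a fall required. Over all genes tested this held for 3417 (20.8%). The means of Cbln4, Adamts16, Miox and Ptgds were at their highest on day 0 or day 3 and their day 10 means were lower again, at 16.0, 10.0, 3.90 and 93.7.

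Some genes turned at this step. Rbm45, an RNA-binding protein, measured 316 and 309 on day 6 and 66.7 and 49.5 on day 8, the deepest fall of the 41 (-2.30 ± 0.21, adjusted p = 5.00e-06). Its mean had been 366 on day 0 and 325 on day 3 and was 198 on day 10, a call upward of 1.61 ± 0.21 on day 10 against day 8 (adjusted p = 7.88e-05). The 2 day 8 arrays were the lowest 2 of all 20. Ptprv, a receptor tyrosine phosphatase, measured 332 and 421 on day 6 and 151 and 162 on day 8 (-1.22 ± 0.20, adjusted p = 0.00215), between means of 227 on day 3 and 306 on day 10, and its adjusted p was 0.068 without replicate 2 of day 6. Efhd2, a calcium-binding protein of the EF-hand family, measured 595 and 359 on day 6 and 1348 and 1516 on day 8 (1.61 ± 0.17, adjusted p = 1.74e-05). It had fallen from a mean of 1787 on day 3 (-1.93 ± 0.17 on day 6 against day 3, adjusted p = 2.54e-07). Another probe set of Efhd2 gave 0.38 from means of 740.0 and 963, and the mean of both, at 0.99, was not called. Pdpn had the same shape, at 300.4 and 282 on day 6 and 629 and 830.4 on day 8 (1.29 ± 0.17, adjusted p = 2.39e-04) after a day 3 mean of 776 (-1.39 ± 0.17, adjusted p = 1.65e-05). On day 10 against day 3 Efhd2 was at 0.03 ± 0.17 and Pdpn at -0.18 ± 0.17 (adjusted p = 0.919 and 0.474), so the levels of day 8 and day 10 lay near that of day 3 and day 6 stood below.

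**Figure D5:**
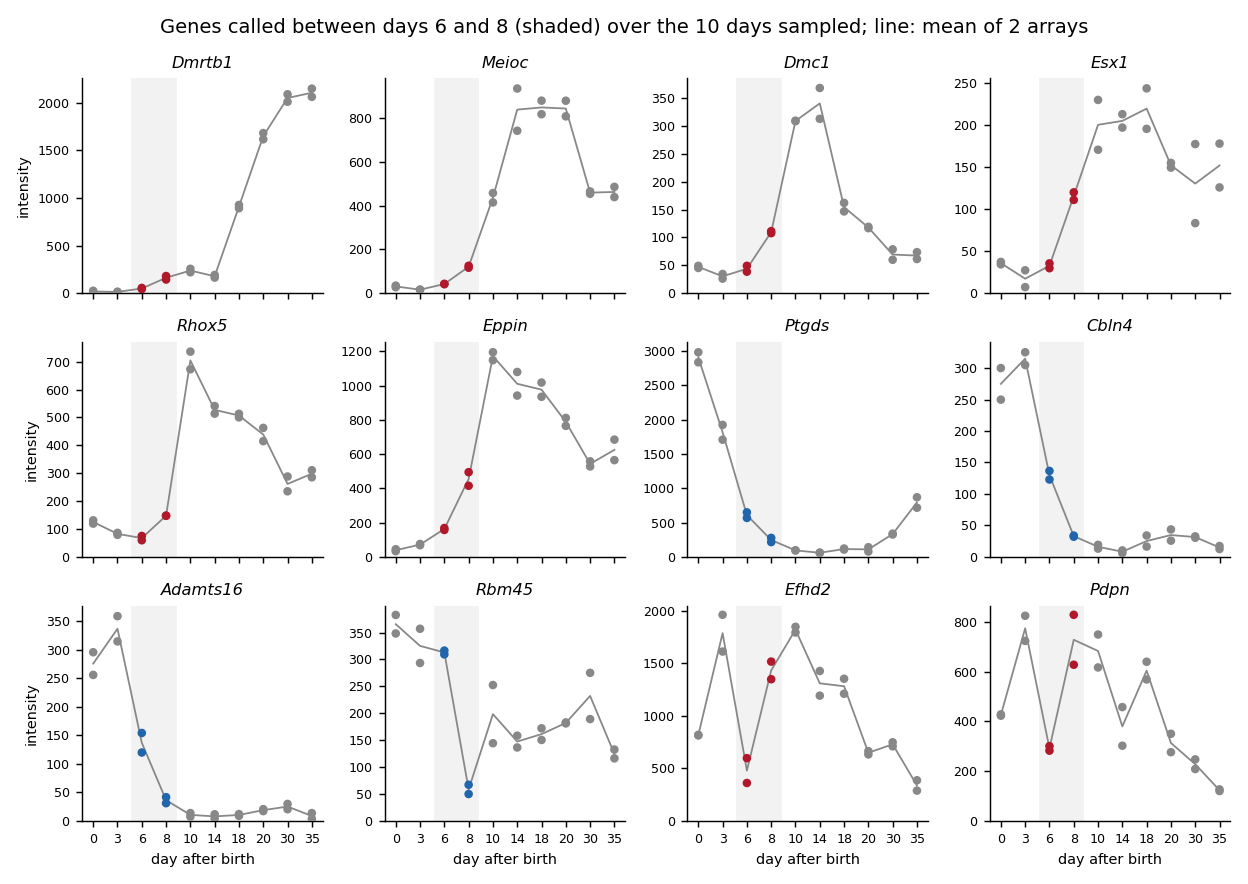
Intensity of 12 called genes over the 10 days sampled, with points for the 2 arrays of each day, a line through their means and days 6 and 8 shaded, coloured red where called higher and blue where called lower. Dmrtb1, Meioc, Dmc1, Esx1, Rhox5 and Eppin were higher again on day 10, Ptgds, Cbln4 and Adamts16 were lower again, Rbm45 was lowest on day 8 (mean 58.1), and Efhd2 and Pdpn dipped on day 6.

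The course of the called genes was followed in the arrays of day 3 and day 10, whose levels did not enter the differences that were called. These arrays did help to set the spread of each gene, and the same SE served both comparisons. The calls on day 10 against day 3 are therefore not independent of the choice of genes, whereas the signs do not use the SE. Of the 32 that rose, 25 were also called higher on day 10 against day 3, none was called lower, and 27 had the same sign, beside 928 genes (5.65%) called higher and 653 (3.97%) called lower of all tested. Of the 9 that fell, 7 were called lower, none higher, and 8 had the same sign. In 26 of the 32 the day 10 mean lay beyond that of day 8, a count that uses the day 8 arrays on which the genes were called. The 6 others were Pdpn and Ccdc13, the zinc transporter Slc39a8, the zinc finger gene Zfp593, and Gm6943 and 1700029F12Rik. The highest of the 10 day means of the 32 rises fell on day 10 in 12 genes, on day 14 in 6, on day 18 or later in 13 and on day 3 in Pdpn, so day 8 was the peak of none. Meioc went from 15.3 on day 3 to 436 on day 10 (4.26 ± 0.13, adjusted p = 1.79e-14), and Eppin from 71.4 to 1172 (3.90 ± 0.13, adjusted p = 2.96e-14).

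Both neighbouring steps, each of which shares its arrays of 1 day with this comparison, gave more calls. The step from day 3 to day 6 covers a longer time than the others, so its counts are not like for like. Day 6 against day 3 had 221 genes higher (1.35%) and 64 lower (0.39%), 285 in all (1.73%), and day 10 against day 8 had 105 higher (0.639%) and 60 lower (0.365%), 165 in all (1%). Their shares of genes bounded within 2-fold were 66.2% and 68%, beside 70.8% between days 6 and 8. The meiotic list had 8 genes called higher on day 6 against day 3, 3 on day 8 against day 6 and 15 on day 10 against day 8. For the list of differentiating spermatogonia these counts were 8, 4 and 1, and for that of immature Sertoli cells 5, 0 and 1 were lower. Whether the steps differ in any single gene was not tested.

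Just inside the 2-fold line stood Crabp1 and Zfp593, at 1.01 and 1.01, and just outside it Acsl6, a fatty acid CoA ligase, at 0.99, and the small nucleolar RNA host gene Snhg3 at 0.98, both with an adjusted p under 0.05. On the lower side the nearest was Kcnj11, a potassium channel, at -0.98 (adjusted p = 0.0132). Removing 1 of the 4 arrays, with the lone array left assumed to vary like the other days, gave 31 to 39 calls and kept 22 to 26 of the 41. The 18 genes kept whichever array was removed were Tmem87a, 1700011M02Rik, Prss50, Efhd2, Dmrtb1, Eppin, Ly6k, Meioc, Pdpn, Lpar3, Dmc1, Slc39a8, Art3, Rhox13, Drp2, H2-K1, Ptgds and Rbm45. The remaining called genes not yet given were Gm4349, at -1.46, and risen genes of at least 1.01. Of these, Gm6943, Tmie, Mybpc1, Zfp593 and Gm4349 each lost their call without any 1 of the 4 arrays (adjusted p 0.063 to 0.353). Zfp541, a zinc finger protein of meiotic prophase, lost it without replicate 1 of day 6 or either array of day 8 (adjusted p 0.0835 to 0.343) and was at 1.73 without replicate 2 of day 6. The call of 1700029F12Rik ended without replicate 1 of day 6 or of day 8 (adjusted p 0.103 to 0.105). Lpar3, a receptor for lysophosphatidic acid, measured 47.9 and 52.2 on day 6 and 123 and 136 on day 8 and Art3, of the ADP-ribosyltransferase family, 149 and 133 on day 6 and 296 and 344 on day 8. A dim probe set of Art3 went the other way at -0.47, and the mean of both, at 0.33, was not called. H2-K1, a class I histocompatibility gene, measured 157 and 163 on day 6 and 348 and 336 on day 8 with a probe set of a kind that can bind several related sequences, and its 3 other probe sets gave 0.23 to 0.70. With the probe sets of each gene averaged, 16 of the 41 calls ended, among them H2-K1 at 0.59, Slc39a8 at 0.98, Neil3 at -0.94, B4galnt1 at 1.07, Tmie at 0.85, Zfp593 at 0.60 and Mybpc1 at 0.54.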

How the data were processed

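Testis RNA of 10 days was read on 20 single-channel 3' arrays, 2 a day. The deposited values are linear intensities of probe sets, and all arrays have a 2% trimmed mean of 125. How the probes were summarized is not given in the sources used. No further scaling was applied. Of 45101 probe sets, 34945 carried 1 gene symbol, 932 several and 9160 none in the annotation used, and 64 were controls. For each gene, of the probe sets with 1 symbol, the brightest on average over all arrays (log2) was used. Genes above the 40th percentile of an array on at least 2 arrays were tested, 16429 of 18193.

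Log2(intensity + 7.83), the constant being the pooled 20th percentile, was fitted with limma 3.58.1 in R 4.3.3 (lmFit, eBayes with trend), with day as a factor of 10 levels over all 20 arrays, 10 residual and 8.88 prior degrees of freedom. Tests were two-sided, adjusted by Benjamini-Hochberg over 16429 genes, and called at an adjusted p under 0.05 and 2-fold. The labels do not say whether the replicate numbers pair the arrays, and the fit took them as unpaired. Deviations of the day 6 and day 8 arrays from their day means correlated with r = 0.0561. This was the highest of all 45 pairs of days, whose lowest r was -0.0249 and median 0.00178. A low correlation cannot show that arrays were unpaired. The array titled day 18 replicate 2 has a second label that says day 0, and its title was followed. Motifs were read from RefSeq promoters (GRCm38.p6), and figures drawn with matplotlib 3.10.9 in Python 3.11.15.

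Named genes are first the 12 largest rises and falls among the calls (all of them if fewer), leaving out clone and predicted symbols. For these, both day 8 arrays had to lie on the same side of both day 6 arrays. Also named are the called members or otherwise the 2 most changed of each list with its brightest member. The 5 brightest genes and 34 tested benchmark genes complete the rule. The members and the 31 lists (496 genes) were chosen with earlier results of these data known. Alternatives were other scalings, constants, filters, probe set rules, fits, thresholds and left-out arrays.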

Additional observations from a re-analysis of the deposited data

Results flagged for a closer look

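Probe sets without a single gene symbol in the annotation stood outside the tests of genes. A limma fit and adjustment over all 37293 probe sets that passed the same filter called 35 higher on day 8 than on day 6 and 17 lower. Of the 7051 among them without a single symbol, 4 were called higher (0.0567%) and 2 lower (0.0284%). These were no greater shares than over all probe sets in that fit. Among those without a single symbol, the highest difference called was that of 1435872_at, at 70.2 and 43.0 on day 6 and 305 and 275 on day 8 (2.24 ± 0.18, adjusted p = 3.12e-06). Its mean was 1029 on day 10. Another, 1456655_at, went from 4.76 and 6.86 to 61.8 and 38.6 (2.06 ± 0.43, adjusted p = 0.0245), between means of 60.2 on day 3 and 10.6 on day 10. The other 2 called higher, 1455930_at and 1427820_at, were at 1.44 and 1.10. Lower were 1447096_at, at 212 and 175 on day 6 and 64.7 and 50.8 on day 8 (-1.62 ± 0.33, adjusted p = 0.0222), and 1443013_at at -1.89.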

How the results depend on the processing

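Over 23 alternatives to the main settings, 9 of the 41 calls held under every one (1700011M02Rik, Dmrtb1, Eppin, Meioc, Pdpn, Lpar3, Rhox13, Ptgds and Rbm45). Over 143 named or called genes, 3271 values were compared: 3022 kept their direction and side of the threshold, 170 lost a call, 42 gained one, 37 that were not called changed sign, and no called value was reversed. The number of genes that rose, 32, was 19 with the constant at the 40th percentile, 57 with array weights, 113 at a 1.5-fold threshold and 192 by adjusted p alone. The number that fell, 9, was 17 with a floor at the median or with every probe set, 29 with array weights, 15 with days 6 and 8 fitted alone, 25 with days 0 to 14 alone, 5 at an adjusted p under 0.01, 31 at 1.5-fold and 62 by adjusted p alone, and 3 to 14 with 1 array left out. Genes bounded within 2-fold, 11635 (70.8%), depended on the added constant. They were 9560 (58.2%) with it at the 5th percentile, 15679 (95.4%) at the 40th and 15720 (95.7%) with a floor at the median. They became 23097 probe sets with every probe set tested, and 6626 at 1.5-fold. Day 6 against day 3, with 285 calls, had 187 with the constant at the 40th percentile, 436 with every probe set, 756 at 1.5-fold and 1571 by adjusted p alone. Day 10 against day 8, with 165, had 109 with that constant, 265 with array weights, 104 at an adjusted p under 0.01, 426 at 1.5-fold and 704 by adjusted p alone. Where a threshold or the number of features tested differs, that difference is part of the setting, and for the others the cause was not tested. No scaling moved the median difference of all genes beyond 0.05. With the replicate number as a block there were 39 calls, 38 of them among the 41, without Rasl10a, Gm6943 and Ccdc13. The mean of a gene's probe sets ended 16 calls, keeping 25. Of the genes not above 34.6 on both days, 31% were bounded within 2-fold, against 92.9% of the others.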
